A study of Mus musculus with 6 samples.

Results

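The genes of the major histocompatibility complex (MHC, called H2 in the mouse) were measured in distal colon of wild-type and ChREBP knockout mice. They were chosen by name: every gene of the expression table whose symbol begins with H2-, together with B2m, Tap1, Tap2, Tapbp, Cd74, Ciita and Cd1d1. That gave 43 of the 19844 genes in the table. By symbol, 3 were classical class I heavy chains (class Ia), 24 were non-classical class I heavy chains (class Ib), 4 were class I accessory genes, 4 were class II chains and 7 were class II accessory genes. The remaining gene, H2-Ke6, is named for its place in the complex and encodes a steroid dehydrogenase.

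The study holds 3 wild-type and 3 ChREBP knockout libraries, each from the distal colon of 1 C57BL6 mouse labelled female, and asks how loss of ChREBP bears on colon carcinogenesis. All 6 mice, the controls included, had been given azoxymethane, a carcinogen, and dextran sulfate sodium, which injures the colon lining (AOM/DSS), and were sampled on day 17 of that course. ChREBP, the carbohydrate response element binding protein encoded by Mlxipl, is a glucose-responsive transcription factor. Which part of the gene was deleted, how old the mice were and whether the deletion was restricted to a tissue was not given in the sources used here.

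MHC class I molecules sit on nearly all nucleated cells and show peptides from inside the cell to CD8 T cells. Each pairs a heavy chain with beta-2 microglobulin, and its peptide is pumped into the endoplasmic reticulum by the TAP transporter and loaded with the help of tapasin. Class II molecules show peptides taken up from outside to CD4 T cells and are made by B cells, dendritic cells and macrophages, and by intestinal epithelium under interferon-gamma, while class Ib molecules are less variable relatives of class I with more specialised roles.

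Values are FPKM, fragment numbers scaled to transcript length and to the size of the library, so levels can be compared between genes per length. The table gives no read counts, so the depth of each library is unknown. The sum of FPKM was between 439107 and 478500, highest in knockout replicate 2, and 8 epithelial markers summed to between 3959 and 4807 FPKM in the 6 libraries. Against the label of sex, the Y-linked gene Ddx3y, looked up after its values were seen, read between 9.51 and 12.11 FPKM and Xist between 0.02 and 0.04 in all 6 libraries. Mlxipl, the targeted gene, read 5.84, 7.49 and 7.27 FPKM in wild-type replicates 1 to 3 and 3.40, 5.66 and 5.04 in knockout replicates 1 to 3. The knockout mice averaged 68.4% of that level, with no overlap between groups (limma log2 fold change -0.48, SE 0.18, unadjusted p = 0.0258, adjusted p = 0.9995).

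No difference between the genotypes in a tested MHC gene passed the threshold, and the groups overlapped in each of these genes. Of the 43 genes, 35 reached 1 FPKM in at least 3 of the 6 libraries and were tested among 13247 such genes with limma on log2(FPKM + 1). Log2 fold changes are given on that scale with knockout above wild type as positive, and they understate the changes of genes with low FPKM. At an adjusted p under 0.05 limma called 0 of the 35, where it called 0.0151% of all genes tested. At an unadjusted limma p under 0.05 there were also 0 of 35, against 3.4% of all genes, or 1.7% in each direction. The smallest unadjusted limma p among them was 0.312, for H2-Eb1, and the adjusted p was 0.9995 for all 35. In 0 of the 35 did the groups fail to overlap, that is, all 3 knockout values lay on one side of all 3 wild-type values, which held for 8.67% of all genes. For 29 of the 35 the 95% interval of the log2 fold change stayed within 2-fold in either direction, as it did for 97% of all genes. The 6 with a wider interval were H2-Q6, H2-Q7, H2-Q8, H2-Q9, H2-DMb2 and H2-Ob. In bulk tissue such as this, fewer cells of a type and less RNA per cell cannot be told apart. Whether mice came from separate litters or cages is not in the labels, so p-values measure the spread between these samples.

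**Figure D1:**
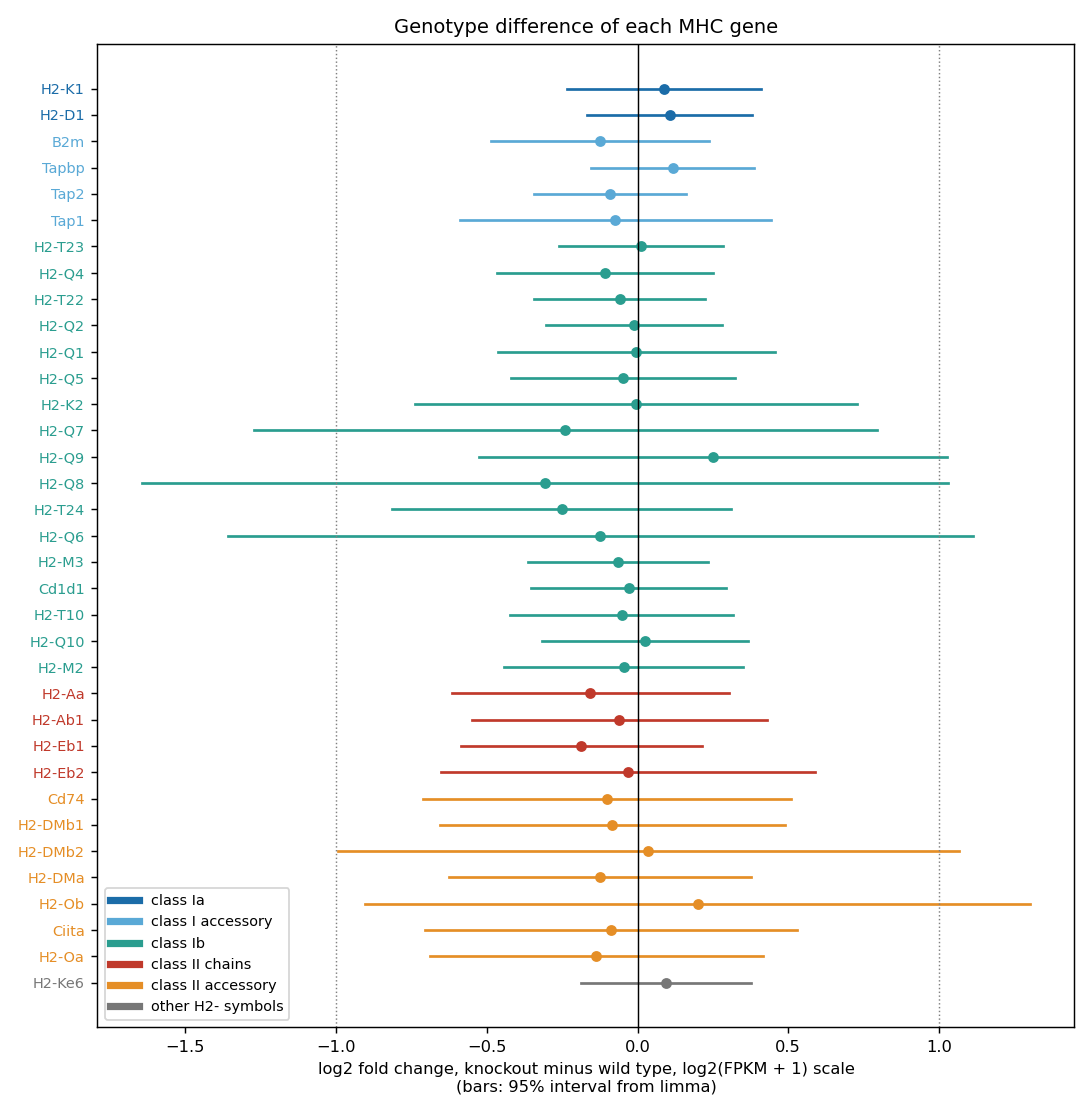
Log2 fold change of each of the 35 tested MHC genes, positive where the knockout was higher, from log2(FPKM + 1), with 95% intervals from limma as bars and dotted lines at a 2-fold change. Every interval crosses 0, and the widest belong to H2-Q8, H2-Q6 and H2-Ob.

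Small differences leaned to the negative side without passing any test. The log2 fold change was negative in 26 and positive in 9 of the 35 genes, with a median of -0.06, whereas 52.7% of all genes were positive and their median was 0.01. That lean rested on single mice: without wild-type replicate 2 there were 20 positive genes, and without knockout replicate 3 there were 24. The median was 0.10 for the class Ia chains, -0.08 for the class I accessory genes, -0.05 for class Ib, -0.11 for the class II chains and -0.09 for the class II accessory genes. Without knockout replicate 2 the class Ia median was -0.01, and without knockout replicate 3 the class II chain median was 0.02.

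The promoters of these genes carry a known shared layout. Class II genes and many class I genes have an X box, bound by the RFX complex and by CREB-family factors, followed by a Y box bound by NF-Y. The assembled factors recruit the coactivators CIITA for class II and NLRC5 for class I. RefSeq promoter sequences of the GRCm38.p6 build were found for 28 of the 43 genes. In the 250 bases before the start site, TGATGA or TGACG followed after 8 to 25 bases by ATTGG on the gene's own strand occurred in 10 of the 28, and in 0.407% of 27025 promoters. The pattern was written with these promoters in view, so the share is a description. The 10 stretches are shown because they cover all the main classes, with the 2 motifs in capitals. Where TGATGA and TGACG overlap, TGATGA is the one in capitals.
H2-K1, chr17:34000348-34000400, minus strand: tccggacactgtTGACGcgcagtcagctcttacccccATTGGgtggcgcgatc
H2-D1, chr17:35262978-35263034, plus strand: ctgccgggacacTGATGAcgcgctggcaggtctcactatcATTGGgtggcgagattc
B2m, chr2:122147597-122147650, plus strand: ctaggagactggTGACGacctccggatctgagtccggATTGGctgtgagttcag
H2-Q4, chr17:35379498-35379554, plus strand: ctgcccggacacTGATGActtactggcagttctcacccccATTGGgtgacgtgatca
H2-Q6, chr17:35424732-35424787, plus strand: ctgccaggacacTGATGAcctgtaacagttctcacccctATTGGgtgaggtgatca
H2-Q7, chr17:35439076-35439131, plus strand: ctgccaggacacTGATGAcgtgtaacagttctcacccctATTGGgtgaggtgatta
H2-M3, chr17:37270173-37270229, plus strand: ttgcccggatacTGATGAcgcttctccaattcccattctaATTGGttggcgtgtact
H2-Aa, chr17:34287855-34287909, minus strand: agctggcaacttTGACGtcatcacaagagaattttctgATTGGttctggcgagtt
H2-Eb1, chr17:34305769-34305824, plus strand: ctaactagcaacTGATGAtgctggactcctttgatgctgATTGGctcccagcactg
H2-DMb1, chr17:34153090-34153146, plus strand: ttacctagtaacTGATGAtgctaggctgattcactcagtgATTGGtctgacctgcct
Between the 2 motifs lay 20 to 22 bases in all 10 stretches. The pattern GAANNGAAA, a form seen in some interferon response elements, was searched on both strands. It was present in both class Ia promoters, in 6 of 14 class Ib promoters and in 6.34% of all promoters. It was absent from this window in the 3 class I accessory promoters and in the 8 class II chain and accessory promoters. Elements of other spacing were not searched, so this absence does not show that those promoters lack such an element. These matches are letters in a window and not measured binding.

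Class Ia heavy chains were among the most abundant of these transcripts and differed little between mice. H2-K1 (NCBI gene 14972) read 506.67, 467.10 and 501.47 FPKM in wild-type replicates 1 to 3 and 463.62, 632.76 and 486.62 in knockout replicates 1 to 3. Knockout replicate 2 stood above the rest and the other 5 libraries overlapped. The means were 492 ± 21.5 (SD, n = 3) for wild type and 528 ± 91.7 (SD, n = 3) for knockout. The log2 fold change was 0.09 (SE 0.14, 95% interval -0.23 to 0.41). H2-D1 (NCBI gene 14964) read 511.35, 479.14 and 464.36 in wild type and 522.79, 583.18 and 466.53 in knockout, again highest in knockout replicate 2. Its log2 fold change was 0.11 (SE 0.12, 95% interval -0.17 to 0.38). The ratio of H2-K1 to H2-D1 lay between 0.887 and 1.085 in the 6 libraries, so the 2 chains were at like levels in each mouse. H2-L, a heavy chain gene that C57BL6 mice lack, was listed at 0 in 5 libraries and at 0.08 FPKM in knockout replicate 1.

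Of the class I accessory genes, B2m, the light chain of class I, was the most abundant MHC transcript. It read 815.66, 842.26 and 822.64 FPKM in wild type and 754.25, 927.88 and 622.01 in knockout. The knockout values spanned the wild-type values on either side, with means of 827 ± 13.8 (SD, n = 3) and 768 ± 153 (SD, n = 3) and a log2 fold change of -0.13 (SE 0.16). Tapbp, the gene of tapasin, averaged 87.5 ± 4.47 among wild-type and 95.5 ± 13.3 among knockout mice. The TAP transporter genes were at lower levels: Tap2 at 22.2 ± 1.19 and 20.8 ± 2.33, and Tap1 at 20.5 ± 5.21 and 19.4 ± 4.88. Tap1 varied most of the 4, reading 20.50, 25.68 and 15.27 in wild type and 24.12, 19.74 and 14.38 in knockout. Knockout replicate 3 was the lowest library in all 4 genes.

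**Figure D2:**
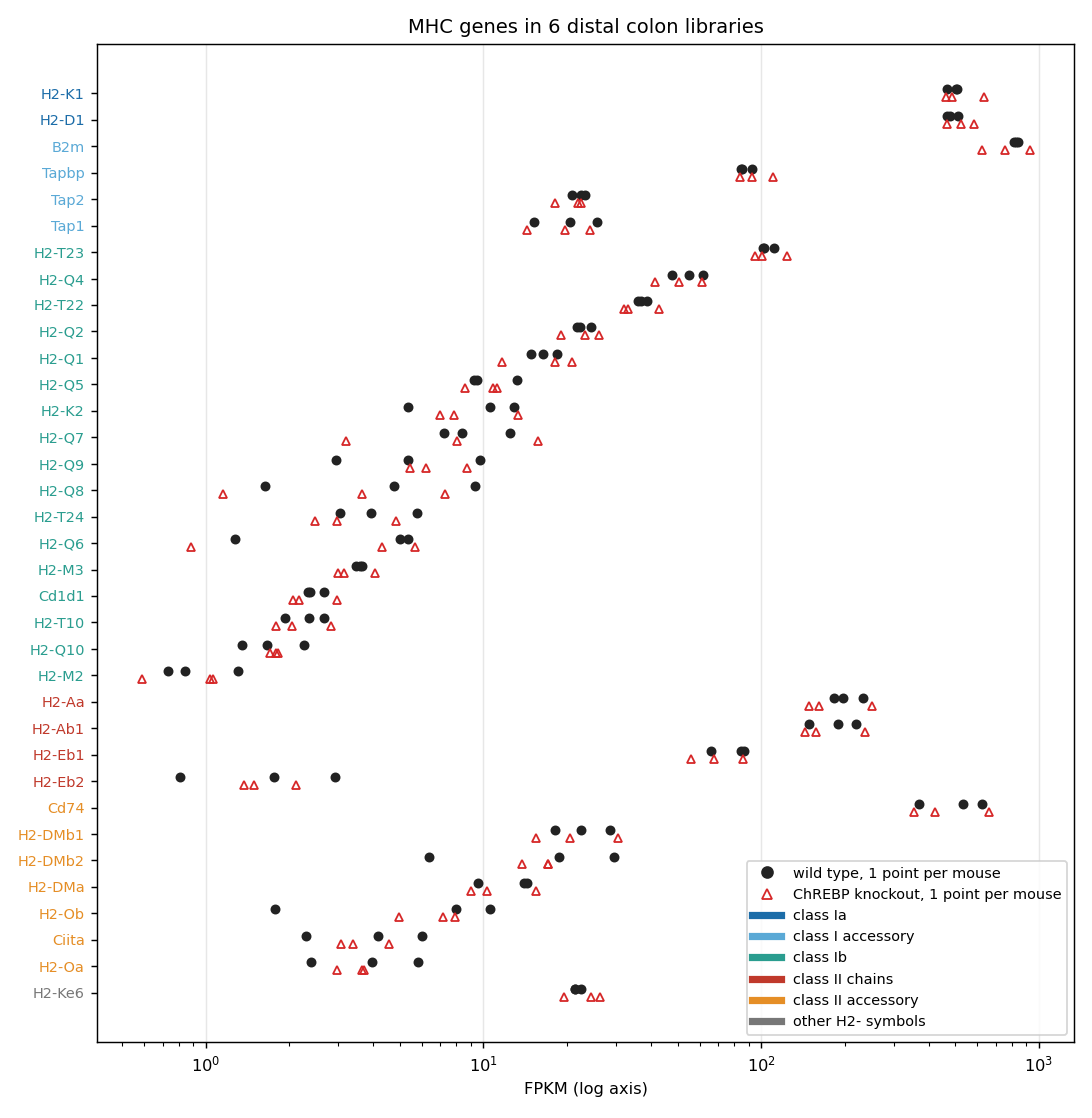
FPKM on a log axis of the 35 tested MHC genes in the 3 wild-type (black circles) and 3 knockout (red triangles) mice, with gene names coloured by class. Symbols of the genotypes overlap in every gene, and B2m, H2-K1, H2-D1 and Cd74 are the highest.

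The 2 heavy chains summed over B2m gave a ratio of 1.25, 1.12 and 1.17 in wild type and 1.31, 1.31 and 1.53 in knockout, so the knockout values did not overlap the wild-type values. The sum of class Ib over the sum of class Ia did not overlap either, at 0.284, 0.326 and 0.303 in wild type and 0.274, 0.280 and 0.275 in knockout. These were 2 of 11 ratios computed between genes or classes, and none was tested. Another of the 11, B2m over H2-K1 alone, did overlap. It was 1.61, 1.80 and 1.64 in wild type and 1.63, 1.47 and 1.28 in knockout.

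Class Ib genes ranged from over 100 FPKM to 0. H2-T23, which encodes Qa-1, the ligand of the NKG2A receptor on NK and T cells, led the class at 102.67, 101.40 and 111.08 FPKM in wild type and 100.81, 123.73 and 94.91 in knockout. These values overlapped, with a log2 fold change of 0.01 (SE 0.12) that became -0.01 once the libraries were brought to equal total FPKM. H2-Q4 was at 54.7 ± 6.84 and 51.1 ± 9.79 (mean ± SD, n = 3), and H2-T22, whose product is bound by some gamma-delta T cells, between 36.01 and 38.74 in wild type and between 32.11 and 42.87 in knockout. H2-Q2 was at 22.8 ± 1.46 and 22.8 ± 3.51, H2-Q1 at 16.5 ± 1.76 and 16.9 ± 4.76, and the pseudogenes H2-Q5 at 10.7 ± 2.25 and 10.2 ± 1.39 and H2-K2 at 9.58 ± 3.84 and 9.36 ± 3.42. H2-T24 was at 4.25 ± 1.37 and 3.42 ± 1.24, and H2-M3, which presents N-formylated bacterial peptides, was steady at 3.67, 3.61 and 3.47 in wild type and 3.16, 4.08 and 2.99 in knockout. Cd1d1, which presents lipids to NKT cells, was at 2.45 ± 0.180 and 2.40 ± 0.502. H2-T10 was at 2.32 ± 0.376 and 2.22 ± 0.543, H2-Q10 at 1.76 ± 0.463 and 1.78 ± 0.0624, and H2-M2 at 0.960 ± 0.308 and 0.897 ± 0.266. The 7 class Ib genes under the filter were H2-T3, H2-Bl, H2-M9, H2-M5, H2-T9, H2-M10.2 and H2-M10.1, with no value above 0.33 FPKM. H2-Ke6, the steroid dehydrogenase gene within the complex, was at 21.7 ± 0.704 and 23.4 ± 3.54.

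The Qa-2 genes H2-Q6 to H2-Q9 varied more between mice than the other tested class I genes, and H2-Q6 and H2-Q8 did so in opposite directions. H2-Q6 read 1.28, 4.99 and 5.35 FPKM in wild type and 0.89, 5.67 and 4.33 in knockout, lowest in replicate 1 of each genotype. H2-Q8 read 9.33, 4.78 and 1.64 in wild type and 7.29, 1.16 and 3.65 in knockout, highest in those same 2 libraries. H2-Q7 read 7.22, 12.49 and 8.39 in wild type and 8.03, 15.70 and 3.20 in knockout, and H2-Q9 read 9.76, 5.36 and 2.95 and 6.23, 5.46 and 8.74. The highest value was 6.37 times the lowest for H2-Q6, 4.91 for H2-Q7, 8.04 for H2-Q8 and 3.31 for H2-Q9, but 1.53 for their sum. That sum was 27.6, 27.6 and 18.3 FPKM in wild type and 22.4, 28.0 and 19.9 in knockout.

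These 4 genes belong to 1 family of related sequence, and their values are uncertain where reads fit more than 1 gene. In the GENCODE M21 transcripts, 17.2% of the 100-base stretches of H2-Q7 and 10.2% of those of H2-Q6 occurred in another gene. No transcript stood under the symbols H2-Q8 or H2-Q9 there, so stretches shared with those genes could not be counted. The shares of H2-Q6 and H2-Q7 may therefore be too low. Shared stretches were found for 16 of 33 MHC genes examined, among them H2-Q5 (15.3%), Cd1d1 (13.8%, with Cd1d2), H2-DMb1 (12.9%, with H2-DMb2), H2-Q1 (12.4%), H2-T22 (11.8%) and H2-T10 (9.66%). H2-K1, B2m, Cd74, H2-Aa, H2-Ab1 and H2-Eb1 had 0 such stretches and H2-D1 had 4.09%. How reads were divided among such copies was not stated in the labels.

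**Figure D3:**
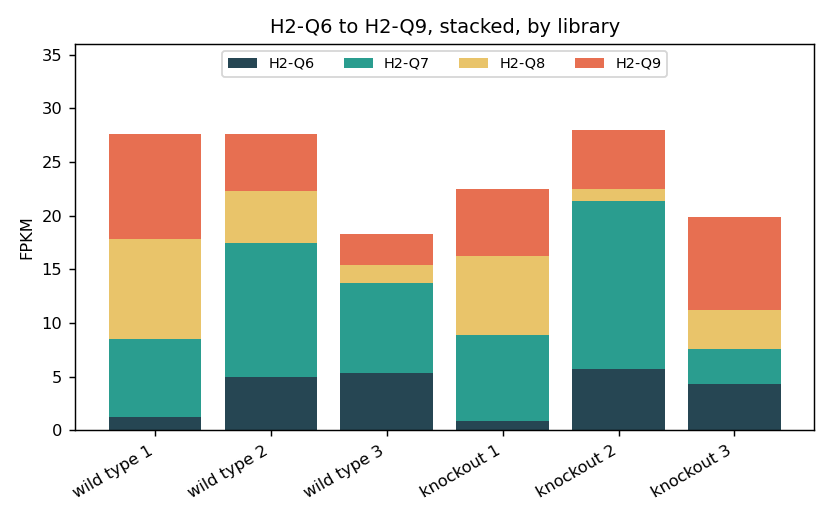
FPKM of H2-Q6, H2-Q7, H2-Q8 and H2-Q9 stacked by library, 3 wild-type and 3 knockout. H2-Q6 is a thin band and H2-Q8 a thick one in replicate 1 of each genotype, while the stacked total stays between 18.3 and 28.0.

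The class II chains were at lower levels than class Ia and differed more between mice of a genotype than between genotypes. H2-Aa (NCBI gene 14960), the I-A alpha chain, read 196.40, 232.72 and 182.26 FPKM in wild type and 162.00, 249.68 and 148.56 in knockout. Its partner H2-Ab1 (NCBI gene 14961) read 188.26, 218.84 and 148.32 in wild type and 158.07, 236.91 and 143.85 in knockout. In each gene knockout replicate 2 was the highest library, wild-type replicate 2 came next and knockout replicate 3 was the lowest. The log2 fold change was -0.16 for H2-Aa (SE 0.20, 95% interval -0.61 to 0.30) and -0.06 for H2-Ab1 (SE 0.21, 95% interval -0.55 to 0.43). The ratio of H2-Aa to H2-Ab1 was 1.02 to 1.06 in 5 libraries and 1.23 in wild-type replicate 3.

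H2-Eb1, the I-E beta chain, read 86.43, 84.25 and 65.95 FPKM in wild type and 67.73, 85.87 and 55.70 in knockout. Its log2 fold change was -0.19 (SE 0.17, 95% interval -0.59 to 0.21), and the groups overlapped. C57BL6 mice do not make the alpha chain with which it pairs, and the expression table listed no gene of that alpha chain under an H2- symbol. H2-Eb2 was low, at 1.77, 2.92 and 0.81 in wild type and 2.11, 1.5 and 1.37 in knockout. Its knockout values lay inside the wild-type range, and the sign of its log2 fold change of -0.03 turned to 0.01 with a pseudocount of 0.1.

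Among the class II accessory genes, Cd74, the invariant chain that escorts class II to endosomes, was at levels near those of the class Ia chains. It read 531.62, 621.19 and 370.63 FPKM in wild type and 422.63, 661.75 and 354.17 in knockout. The 6 libraries stood in the same order as for H2-Ab1, and the means of 508 ± 127 (SD, n = 3) and 480 ± 161 (SD, n = 3) differed by less than either SD. H2-DMa and H2-DMb1 encode H2-DM, which exchanges the invariant chain fragment for peptide. H2-DMa was at 12.6 ± 2.65 and 11.6 ± 3.45 and H2-DMb1 at 23.1 ± 5.34 and 22.2 ± 7.68, each highest in knockout replicate 2 and lowest in knockout replicate 3. Ciita, the master coactivator of class II, read 4.19, 6.03 and 2.29 in wild type and 4.58, 3.40 and 3.07 in knockout, with a log2 fold change of -0.09 (SE 0.27).

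H2-DMb2 and the H2-DO genes, which encode a modulator of H2-DM made mainly by B cells, followed another order. H2-DMb2 read 18.79, 29.62 and 6.37 FPKM in wild type and 17.10, 13.77 and 17.02 in knockout. H2-Ob read 7.95, 10.57 and 1.78 in wild type and 7.93, 7.17 and 4.97 in knockout, and H2-Oa read 3.98, 5.84 and 2.39 and 3.71, 3.65 and 2.97. In all 3 genes wild-type replicate 2 was the highest and wild-type replicate 3 the lowest, with the knockout mice between them. Leaving out wild-type replicate 3 gave log2 fold changes of -0.54 for H2-DMb2 and -0.42 for H2-Ob, and leaving out wild-type replicate 2 gave 0.48 and 0.60.

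B cell markers moved with that order. All 6 markers (Cd79a, Cd79b, Ms4a1, Cd22, Pax5 and Blk) were highest in wild-type replicate 2 and lowest in wild-type replicate 3, as were 5 MHC genes: H2-DMb2, H2-Ob, H2-Oa, Ciita and H2-Eb2. This order was seen in 3.93% of all genes tested. The markers summed to 79.5, 118.8 and 21.6 FPKM in wild type and 76.2, 63.2 and 53.7 in knockout, and no marker was at 0. The order was not seen in B cell markers alone. It was also that of 7 of 22 tested genes of the interferon-gamma axis, among them Cxcl10, Socs1 and Cd274, whose list summed to 564, 665 and 497 FPKM in wild type and 629, 563 and 519 in knockout. Of other markers it was seen in 2 of 4 for leukocytes in general, 1 of 7 for T cells and 1 of 3 for dendritic cells, and in 0 of 6 for plasma cells and 0 of 8 for macrophages. The part of any of these in the MHC values was not tested.

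A second order had knockout replicate 2 highest and knockout replicate 3 lowest, and it held in 12 MHC genes and in 4.15% of all genes. These were B2m, Tapbp, H2-T23, H2-T22, H2-Q7, H2-M3, Cd1d1, Cd74, H2-Aa, H2-Ab1, H2-DMb1 and H2-DMa. After rescaling to the same total FPKM it held in 9 of them, no longer in Cd74, H2-Aa and H2-DMb1, and in 2.23% of all genes. With median-ratio scaling it held in 13 MHC genes, these 12 and H2-D1, and in 3.79% of all genes. Knockout replicate 2 also had the highest macrophage marker sum (294 FPKM against 161 to 280 in the other 5 libraries) and plasma cell marker sum (573 against 275 to 570). Knockout replicate 3 had the lowest T cell marker sum (15.7 against 19.1 to 28.2) and the lowest plasma cell marker sum, whereas the macrophage sum was lowest in knockout replicate 1. Single markers did not all follow these sums, and Cd68, Csf1r, Mrc1 and Adgre1 were highest in wild-type replicate 3. Gene by gene, this second order held in 1 of 8 macrophage, 2 of 6 plasma cell and 2 of 7 tested T cell markers. The 6 NK and cytotoxic markers, of which 1 was tested, were low, and of them Nkg7 and Klrb1c had this order. Gzmb was highest in knockout replicate 1, and Gzma, Ncr1 and Prf1 in wild-type replicate 2. The sum of the NK and cytotoxic markers was 4.64 in knockout replicate 2, 1.77 in knockout replicate 3 and 2.97 to 4.27 in wild type. The 4 muscle markers ran the other way, at 2661 in knockout replicate 3 and 1641 in knockout replicate 2 against 1601 to 2195 in the other 4 libraries. Their part in the MHC values was not tested. None of the macrophage, plasma cell, T cell and muscle markers was at 0 in any library, and 1 NK marker, Prf1, was at 0 in wild-type replicate 3.

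**Figure D4:**
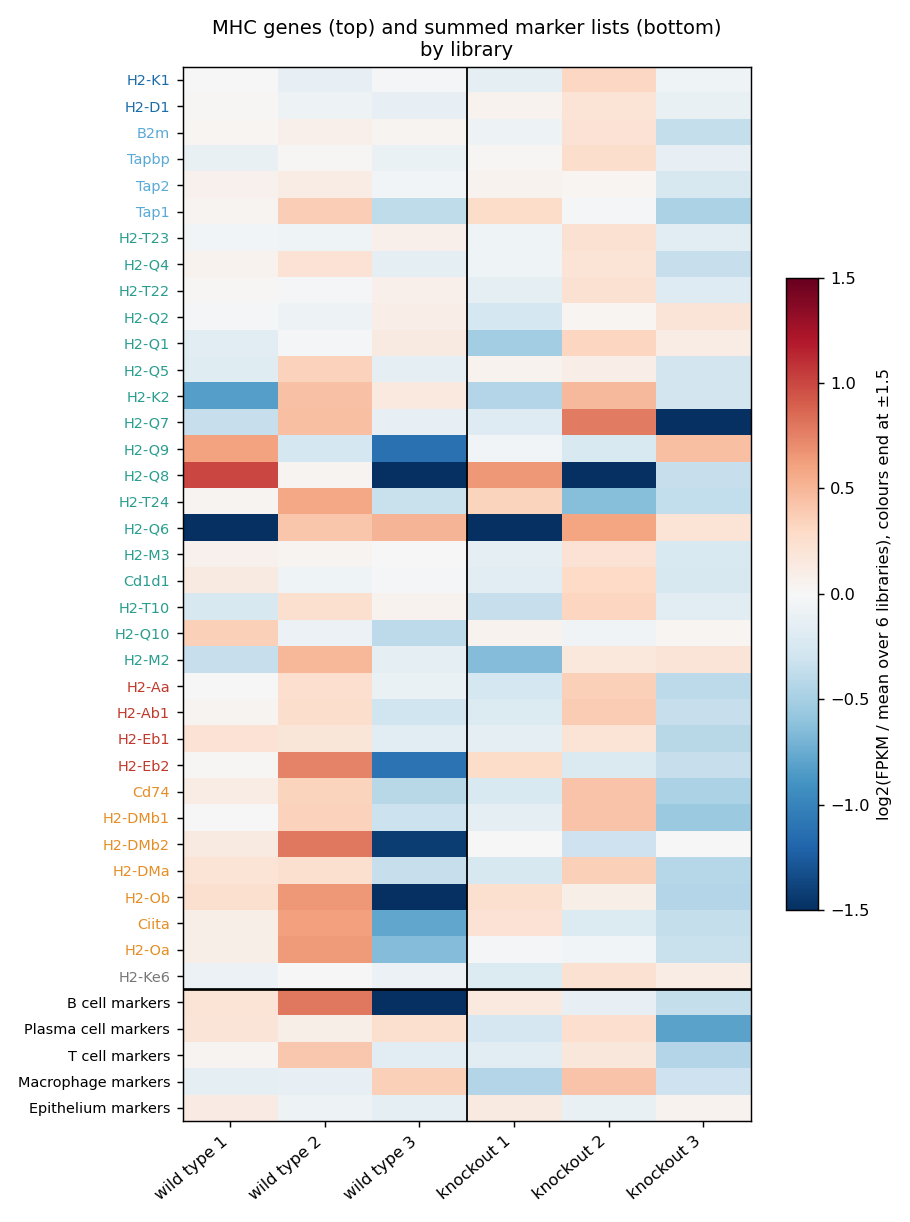
Level of each tested MHC gene, and of 5 summed marker lists below the line, in each library relative to its own mean over the 6 libraries on the log2 scale (red above, blue below, colours end at 1.5). H2-Ob, H2-Oa, H2-DMb2, Ciita and H2-Eb2 share the red wild-type replicate 2 and blue wild-type replicate 3 of the B cell markers, while most class I rows are pale.

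The classes differed in how much they varied between mice. The coefficient of variation over the 6 libraries had a median of 10.6% for class Ia, 11.8% for the class I accessory genes, 18.6% for class Ib, 20.8% for the class II chains and 31.2% for the class II accessory genes, beside 13.0% for all genes tested. Spread did not simply follow level: Cd74 varied by 26.5% at a mean of 494 FPKM, whereas H2-D1 varied by 8.98% at 505 FPKM and H2-M3 by 11.1% at 3.50 FPKM. Differences between classes in this spread were not tested.

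Summed over its genes, class Ia came to 1018, 946 and 966 FPKM in wild type and 986, 1216 and 953 in knockout. Class Ib came to 289, 308 and 293 in wild type and 270, 340 and 262 in knockout, between 0.274 and 0.326 of class Ia. The class II chains came to 473, 539 and 397 in wild type and 390, 574 and 349 in knockout. Relative to class Ia, the class II chains stood at 0.464, 0.569 and 0.411 in wild type and 0.395, 0.472 and 0.367 in knockout, and the groups overlapped. Knockout means were 107.7% of wild type for class Ia, 98.0% for class Ib, 94.4% for the class I accessory genes, 93.2% for the class II chains and 94.2% for the class II accessory genes. In each class the difference was smaller than the SD of the knockout mice. For class Ia and the class I accessory genes it was larger than the SD of the wild-type mice, 37.1 and 23.2 FPKM.

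**Figure D5:**
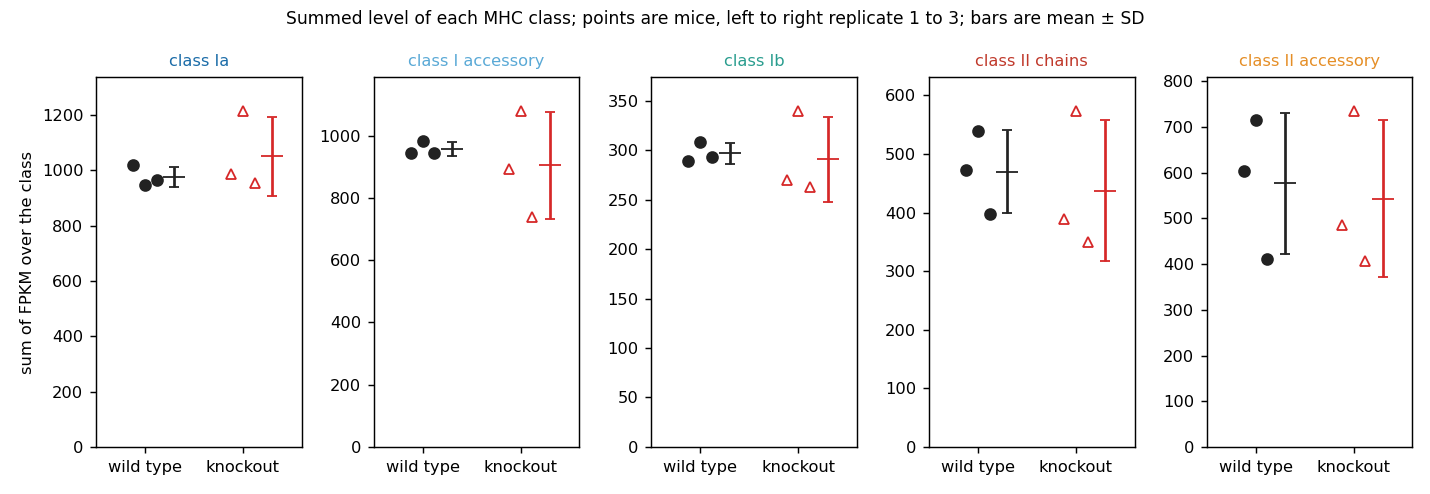
Sum of FPKM over the genes of each MHC class, 1 point per mouse from replicate 1 to 3, with the group mean ± SD beside the points and the axis from 0. In every class the highest point is knockout replicate 2, and the class II panels show the widest spread relative to their mean.

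The genes that drive and serve these pathways showed no call either. Of 15 further class I genes (regulators, immunoproteasome, peptide trimming and folding) limma called 0 higher and 0 lower, with 9 positive and 6 negative log2 fold changes and a median of 0.05. Nlrc5, the class I coactivator, read 2.15, 3.82 and 1.19 FPKM in wild type and 2.46, 1.75 and 1.46 in knockout, with wild-type replicate 2 highest and wild-type replicate 3 lowest. The immunoproteasome subunits were at 31.4 ± 3.98 and 33.4 ± 8.52 (Psmb8) and 21.7 ± 3.85 and 22.3 ± 6.04 (Psmb9), and Psmb10 lay between 43.44 and 64.75 in the 6 libraries. Psmb8 and Psmb9 were highest in knockout replicate 2 and lowest in knockout replicate 3, like B2m. This order was seen in 2 of the 15 genes, and that of the B cell markers in 3 of the 15. The proteasome activators Psme1 and Psme2 lay between 79.44 and 101.62, and the trimming peptidase gene Erap1 at 22.4 ± 2.20 in wild type and 20.2 ± 3.79 in knockout. The folding helpers were abundant, Calr between 393.54 and 568.66 and Pdia3 between 225.49 and 297.37, each highest in a replicate 1 and lowest in knockout replicate 3.

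Of 16 further class II genes limma called 0 higher and 0 lower, with 8 positive and 8 negative and a median of 0.00. Rfx5, which binds the X box, averaged 5.86 ± 1.02 among wild-type and 5.46 ± 0.635 among knockout mice, and Marchf1, a ubiquitin ligase that removes class II from the surface, 2.07 ± 0.869 and 1.68 ± 0.544. The endosomal reductase gene Ifi30 was at 152 ± 5.48 and 151 ± 18.8, and Ctss, a protease that trims the invariant chain, at 245 ± 34.0 and 252 ± 42.5. Wild-type replicate 3 had the highest Ctss value, 283.65, although it was among the lowest for Cd74.

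In the interferon-gamma axis, the main inducer of MHC genes, limma called 0 of 22 tested genes in either direction, with 8 positive and 14 negative and a median of -0.14. In 1 of the 22, the receptor gene Ifngr1, the groups did not overlap (119 ± 6.88 and 130 ± 6.87 FPKM), against 8.67% of all genes. Ifng itself lay between 0 and 0.10 FPKM and was not tested. The interferon-inducible Irgm1 read 27.61, 42.15 and 20.59 in wild type and 35.14, 19.32 and 16.60 in knockout. Knockout replicate 2, the highest library for Cd74 and H2-Ab1, was among the lowest for Irgm1, but it was the highest for Ido1 (16.61) and for the receptor gene Ifngr2 (118.36). The interferon-induced chemokine genes were low and uneven, Cxcl9 at 3.42, 4.97 and 1.59 in wild type and 2.40, 2.22 and 1.19 in knockout and Cxcl10 at 6.04, 16.99 and 3.19 and 6.39, 3.86 and 5.59. Wild-type replicate 2 was the highest library for both. Irf1, a further regulator of class I, was at 74.0 ± 12.1 and 83.4 ± 1.92.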

How the data were processed

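Poly-A RNA of 6 distal colon libraries was sequenced after Trizol extraction, per the labels' protocols. The authors deposited 1 table of FPKM values per gene and library, with HISAT2, RSEM and mm39 named in the submitters' processing notes; versions, strand setting and any further scaling were not given there. Depth in reads is therefore unknown. Genotype came from the labels, and each library's column from its description. Date-like symbols (27) were replaced through the gene number, and 19794 of 19844 numbers matched RefSeq.

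The filter kept genes that reached 1 FPKM in 3 or more libraries, and log2(FPKM + 1) was fitted with limma 3.58.1 in R 4.3.3 (mean-variance trend, genotype as sole term, two-sided, Benjamini-Hochberg adjustment over 13247 genes, threshold 0.05). The fit was also run on normal data simulated from its own means and spreads, with changes added only to genes above a set mean level. That run cannot test the assumptions of the model. Sums, ratios and coefficients of variation are descriptions with no test. The MHC genes, the pathway and marker lists and the tests were chosen with earlier results of these data known. All MHC genes past the filter are named, and pathway genes were named from a list of symbols, the rest being given by counts. Pathway lists held 15, 16 and 24 genes; some listed genes are not reported here. Promoters came from RefSeq (GRCm38.p6) and transcripts from GENCODE M21, both of another build than mm39. Alternatives were another pseudocount, no filter, 2 rescalings, 2 models of the spread, a replicate block and leaving out each library. Tables were made with Python 3.11.15 and figures with matplotlib 3.10.9.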

Additional observations from a re-analysis of the deposited data

How the results depend on the processing

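Of the MHC genes 0 passed the threshold in limma as reported, under 7 other choices (pseudocount 0.1, no filter, equal total FPKM, median-ratio scaling, no trend, robust prior, replicate block) or without any 1 library; the lowest adjusted p was 0.986 under the former and 0.796 without a library. Unadjusted limma p fell below 0.05 for 1 of 35 MHC genes without wild-type replicate 1, 1 without wild-type replicate 3 and 1 without knockout replicate 2. In these fits it did so for 385, 458 and 488 of all 13247 genes tested, respectively. The log2 fold change of H2-Eb2 turned to 0.0055 with pseudocount 0.1. At equal total FPKM those of H2-T23 (-0.015), Psmb9 (-0.0026), Rfxap (-0.016) and Rfxank (-0.0065) changed sign, and Rfxap did so with median-ratio scaling (-0.0012); the cause was not tested.

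Over all genes limma called 2 as reported and under each of the 2 rescalings. It called 3 with pseudocount 0.1, no filter, no trend or the robust prior, and 0 to 1 without 1 library (323 to 807 at unadjusted p). With the replicate number as a block it called 0 (504 at unadjusted p). The deviations of same-numbered mice correlated at 0.27, -0.096 and 0.063 across genes, so the numbers were not taken to pair the mice. The block left 0 MHC genes called.

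Leaving out 1 library at a time reversed the sign of 54 of 210 values of the MHC genes, with fewer samples in each fit, and the following log2 fold changes lay on both sides of 0. They were those of B2m (-0.27 to 0.017), Tap2 (-0.14 to 0.0011), Tap1 (-0.26 to 0.12), Cd74 (-0.36 to 0.091), H2-DMb1 (-0.33 to 0.14) and H2-DMb2 (-0.54 to 0.48). The other class II genes were H2-DMa (-0.34 to 0.023), H2-Ob (-0.42 to 0.60), Ciita (-0.38 to 0.17), H2-Oa (-0.40 to 0.11), H2-Ab1 (-0.28 to 0.082) and H2-Eb2 (-0.32 to 0.24). In class I they were H2-K1 (-0.049 to 0.17), H2-T23 (-0.10 to 0.089), H2-Q4 (-0.24 to 0.030), H2-T22 (-0.19 to 0.016), H2-Q2 (-0.11 to 0.11) and H2-Q1 (-0.17 to 0.23). The same was seen in H2-Q5 (-0.13 to 0.11), H2-K2 (-0.34 to 0.23), H2-Q7 (-0.72 to 0.28), H2-Q9 (-0.11 to 0.62), H2-Q8 (-0.82 to 0.20) and H2-Q6 (-0.60 to 0.43). It was also seen in H2-M3 (-0.17 to 0.0046), Cd1d1 (-0.15 to 0.042), H2-T10 (-0.18 to 0.044), H2-Q10 (-0.083 to 0.15) and H2-M2 (-0.13 to 0.078). Among pathway genes the values on both sides of 0 were those of Nlrc5 (-0.45 to 0.12), Psmb8 (-0.12 to 0.21), Psmb9 (-0.15 to 0.24), Psme1 (-0.037 to 0.14) and Pdia3 (-0.15 to 0.034). Next were Calr (-0.18 to 0.081), Tapbpl (-0.12 to 0.20), Rfx5 (-0.16 to 0.035), Rfxap (-0.11 to 0.13), Rfxank (-0.062 to 0.12) and Ifi30 (-0.085 to 0.088). Further such genes were Ctss (-0.042 to 0.18), Lgmn (-0.11 to 0.17), Marchf1 (-0.38 to 0.028), Jak1 (-0.13 to 0.074), Cd274 (-0.034 to 0.24) and Cxcl10 (-0.86 to 0.19). The last were Gbp2 (-0.31 to 0.026), Gbp4 (-0.065 to 0.20), Ido1 (-0.053 to 0.68) and Igtp (-0.53 to 0.044).

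The table gives no read counts, so counting error is not given, and with 3 mice a group 6 of 35 intervals reached beyond 2-fold.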
